A study of Homo sapiens with 96 samples.

Results

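The 9 genes described here carry, bind, break down or respond to retinoic acid in human neural cultures. They are the retinoic acid hydroxylases CYP26A1 and CYP26B1, the retinal reductase DHRS3, the binding proteins CRABP1 and CRABP2, the retinol transporter STRA6, and the nuclear receptors RARA, RARB and RARG. The members are the rows of the deposited table whose Ensembl identifiers map to these symbols, and 9 of 9 were found among 58434 genes. The set was selected from earlier results on the same libraries, in which CYP26B1 stood out by its low values in fluoxetine IC5 against control cultures. CYP26B1 is therefore described without a test in every comparison, and no member is tested in fluoxetine IC5 against control.

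Polyadenylated RNA was sequenced in 96 libraries in 12 groups of 8, all made from derivatives of the H9 line of human embryonic stem cells. Of these, 10 groups were day 10 neuron and astrocyte co-cultures exposed to 5 compounds known for developmental neurotoxicity, each at IC5 and at IC20/100. The compounds were acrylamide and valproic acid, both dissolved in medium, and chlorpyrifos, fluoxetine and methyl mercury, which were dissolved in dimethyl sulfoxide (DMSO, 0.25% of the final medium). The remaining groups were unexposed day 10 co-cultures, called control, and the neural progenitor cells (NPC, day 0) they were grown from. IC5 is taken to mean the concentration that inhibits by 5%, and IC20/100 the one that inhibits by 20%, diluted 100-fold. What was inhibited, the molar doses and how long the cells were exposed could not be read from the labels. All day 10 groups were grown in a medium with N2 and a supplement that the labels call B-27-retinoic acid, and the labels do not spell out whether it held or lacked retinoic acid. Nor do they say whether the controls held DMSO, so an effect of a DMSO compound and one of its solvent cannot be told apart. Per the labels each group is 1 experiment with 8 technical replicates, so every p-value below measures only the spread between those replicates. All exposed groups were set against the same 8 controls. These controls were also 1 side of the comparison that drew attention to CYP26B1, so tests of the members against them are not independent of that choice.

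Retinoic acid is made from vitamin A. Retinol enters cells in part through STRA6, is oxidised to retinal by retinol dehydrogenases such as RDH10, and is then oxidised to retinoic acid by the ALDH1A enzymes. DHRS3 reduces retinal back to retinol, CRABP1 and CRABP2 hold retinoic acid in the cytoplasm, and the CYP26 enzymes hydroxylate it for breakdown. In the nucleus it binds RARA, RARB and RARG, which act on DNA as heterodimers with RXR partners. RARB, CYP26A1 and DHRS3 are known as genes that retinoic acid itself induces, and in the embryo the pathway patterns the hindbrain and spinal cord and promotes neuronal differentiation.

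The libraries held 9.49 to 29.63 M (megareads) recovered reads, with a median of 18.94 M, and each level below is the deposited normalized read count. Neuron markers were abundant in both stages, and the 10 listed summed to 82440 to 89030 in controls against 61110 to 67410 in NPC. DCX averaged 27000 ± 1633 in controls against 16110 ± 1026 in NPC, MAP2 17970 ± 954.7 against 16960 ± 1066, and SYT1 2199 ± 225.5 against 2839 ± 294.1 (SD, n = 8 each). The 8 astrocyte markers summed to 4439 to 5729 in controls against 3830 to 5505 in NPC, most of it the glutamate transporters SLC1A2 and SLC1A3. The astrocyte marker GFAP was near the floor at 25.7 ± 14.59 in controls against 9.7 ± 10.25 in NPC, as was AQP4 at 5.41 ± 6.525 in controls against 21.55 ± 9.22 in NPC. Methyl mercury IC20/100 replicate 8 stands apart from its group, with the highest deposited total (20.95 M). Its CRABP1 level was 5323 against 2522 to 2944 in the other 7 libraries, so members' calls in that group are given with and without it.

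CYP26B1 (ENSG00000003137.8, chr2:72129238-72148038 on the minus strand, GRCh38 with GENCODE 29) had its highest level in NPC and its lowest after methyl mercury and fluoxetine at IC5. Methyl mercury IC5 libraries held 170.0 at the lowest, 253.0 at the median and 423.3 at the highest. Fluoxetine IC5 libraries ranged between 238.0 and 442.8 with a median of 303.3. Controls ranged between 753.0 and 953.6 with a median of 854.3, so neither exposed group overlapped them. NPC, at 1433 to 1839 with a median of 1554, lay above every other library.

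By group mean, CYP26B1 had an order in which all groups of DMSO compounds came last. NPC came first at 1579 ± 133.5, then control at 860.2 ± 80.52, acrylamide IC5 at 836.8 ± 156, acrylamide IC20/100 at 831.8 ± 210, valproic acid IC20/100 at 715.3 ± 153.7 and valproic acid IC5 at 645.1 ± 126.5 (SD, n = 8 each). Below them came chlorpyrifos IC5 at 499.0 ± 109, methyl mercury IC20/100 at 493.9 ± 162.5, fluoxetine IC20/100 at 473.4 ± 131.6, chlorpyrifos IC20/100 at 447.1 ± 67.41, fluoxetine IC5 at 324.1 ± 72.73 and methyl mercury IC5 at 262.4 ± 82.86. NPC and control were the one pair of neighbours whose ranges, and whose means with their SDs, did not overlap. All other neighbours in this order overlapped. The 6 groups of DMSO compounds had means of 262.4 to 499.0 and 47 of their 48 libraries lay below the lowest control, whereas the 4 groups of medium compounds had means of 645.1 to 836.8. The share of all genes with such a separation was not computed.

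**Figure D1:**
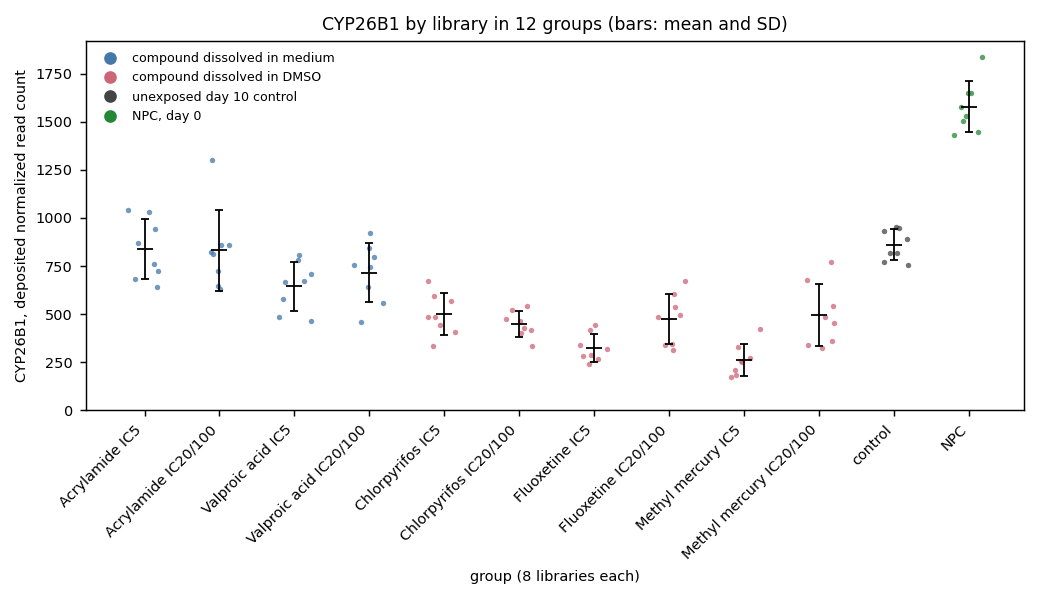
Deposited normalized read counts of CYP26B1 (y axis) by group (x axis), 1 point per library, with bars for the mean and SD of 8 libraries. The DMSO compounds (red) lie below the controls in 47 of 48 libraries, the medium compounds (blue) overlap the controls, and NPC lie above all day 10 libraries.

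On the log2 scale, with a pseudocount of 2 and sequencing run as a term, CYP26B1 differed from control by -1.73 ± 0.15 (SE) in methyl mercury IC5 and by -1.37 ± 0.15 in fluoxetine IC5. The difference was -0.93 ± 0.15 in chlorpyrifos IC20/100, -0.90 ± 0.15 in fluoxetine IC20/100, -0.81 ± 0.15 in chlorpyrifos IC5 and -0.80 ± 0.15 in methyl mercury IC20/100. Without its replicate 8 methyl mercury IC20/100 averaged 515.7 ± 162.4 (SD, n = 7), and the difference from control was -0.74 ± 0.15. In each of these 6 groups CYP26B1 was below the controls of the same run in 6 of 6 sequencing runs. Valproic acid differed from control by -0.43 ± 0.15 at IC5 and -0.27 ± 0.15 at IC20/100, and acrylamide by -0.03 ± 0.15 and -0.02 ± 0.15. These are descriptions and carry no test, as given above.

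Methyl mercury was the compound whose concentrations differed most in CYP26B1, by -0.94 ± 0.15 (log2, SE) between IC5 and IC20/100, with IC5 lower in 6 of 6 runs, and by -0.99 ± 0.15 without replicate 8 of IC20/100. For fluoxetine the same difference was -0.47 ± 0.15, with IC5 lower in 5 of 6 runs. Chlorpyrifos differed by 0.12 ± 0.15, valproic acid by -0.17 ± 0.15 and acrylamide by -0.01 ± 0.15. In all 5 compounds the ranges of both concentrations overlapped. Controls against NPC differed by -0.87 ± 0.07, lower in controls in 6 of 6 runs.

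Marker sums differed between the same groups, and their part in the level of CYP26B1 was not tested. The neural progenitor list (7 of 7 markers with a mean of at least 10) summed to 88690 to 97130 in methyl mercury IC5 and 95190 to 103900 in fluoxetine IC5, against 96150 to 103000 in controls. It lay below every control in chlorpyrifos IC5 (81680 to 88200), chlorpyrifos IC20/100 (86100 to 94500), fluoxetine IC20/100 (82110 to 90510) and acrylamide IC5 (75830 to 84090). In methyl mercury IC20/100 the progenitor sum was 85950 to 144300 with a median of 92200, and its highest library lay above those of all other groups. The neuron list (10 of 10 markers with such a mean) summed to 72210 to 81230 in methyl mercury IC5, below every control. It summed to 80190 to 86120 in fluoxetine IC5 and 70500 to 84530 in methyl mercury IC20/100, against 82440 to 89030 in controls. For 5 of the 6 oligodendrocyte lineage markers, the sum was 99.41 to 166.3 in methyl mercury IC5, 130.3 to 221.3 in fluoxetine IC5 and 95.43 to 158.5 in controls. For 3 of the 4 neural crest markers it was 1004 to 1693 in methyl mercury IC5, 1139 to 1636 in fluoxetine IC5 and 1241 to 1797 in controls. SOX10, which belongs to both lists and was near the floor, averaged 5.829 in methyl mercury IC5, 7.554 in fluoxetine IC5 and 3.227 in acrylamide IC5, against 14.0 in controls. The sums of the 5 and of the 3 markers, SOX10 included, overlapped those of controls in each of these groups. The other markers of these lists are not given singly, and no loss of a cell type is read from SOX10. Mesenchymal, pericyte and meningeal markers (6 of 8 with such a mean in controls and in methyl mercury IC5, 5 of 8 in fluoxetine IC5, 7 of 8 in NPC) summed to 1316 to 1748 in controls against 3108 to 4291 in NPC. In methyl mercury IC5 that sum was 952.1 to 1546 and in fluoxetine IC5 1414 to 2392. CYP26B1 and STRA6 also fell from NPC to controls, as did other marker lists. Pluripotent markers fell from 4336 to 4693 in NPC to 1506 to 1667 in controls. Endothelial markers fell from 220.1 to 572.7 to 62.71 to 216.9, and the 5 oligodendrocyte lineage markers from 335.3 to 544.5 to 95.43 to 158.5. The neuron sum rose. Microglia markers summed to at most 20.66 in any library, and 0 of 5 had a group mean of 10. In bulk RNA, fewer cells of a type and less RNA per cell cannot be told apart.

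Among 12507 protein-coding genes, the group means most like those of CYP26B1 over the 11 day 10 groups were those of MMP15 (Pearson r = 0.935), NXPH4 (0.931), SPRY4 (0.931), VPS37B (0.919) and EPHA3 (0.894). The r is over 11 group means that share 8 controls, runs and solvents, and carries no p. SPRY4, which codes for a feedback inhibitor of receptor tyrosine kinase signalling, had a spread close to that of CYP26B1, with means of 112.4 in methyl mercury IC5 and 132.2 in fluoxetine IC5 against 290.9 in controls. MMP15, a membrane matrix metalloproteinase, had a narrow span, at 1965 in methyl mercury IC5 and 1968 in fluoxetine IC5 against 2318 in controls. Of the other members, DHRS3 (r = 0.75), STRA6 (0.709) and CRABP2 (0.672) were the most like CYP26B1, and CYP26A1 was not (-0.08).

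**Figure D2:**
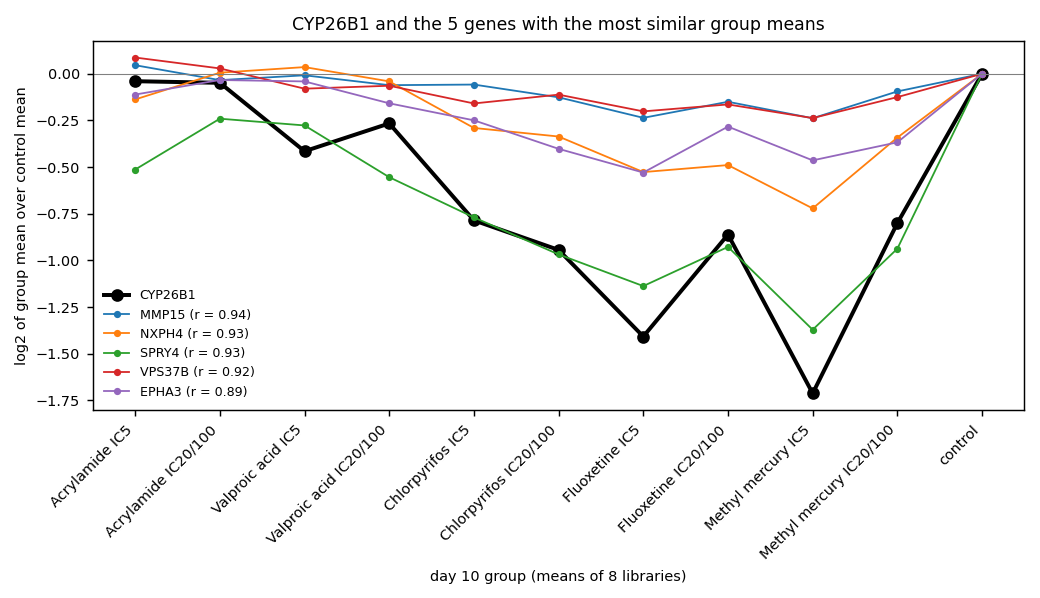
Group means of CYP26B1 (black) and of the 5 genes most like it, as the log2 ratio to the control mean (y axis), over the 11 day 10 groups (x axis). SPRY4 reaches down nearly as far as CYP26B1, while MMP15 and VPS37B stay close to their control means.

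CYP26A1 (ENSG00000095596.12, chr10:93073475-93077890, plus strand), the other hydroxylase, was nearly silent beside CYP26B1. Per kilobase of exon its control level was 2.901, against 171.5 for CYP26B1. An unnamed gene, ENSG00000285846, overlaps it on the same strand, so some of its reads are uncertain. Its highest level was in valproic acid IC5 cultures, with 11.57 at the lowest, 16.88 at the median and 49.1 at the highest, against 4.977, 8.175 and 16.74 in controls. The ranges overlapped, and the difference of 1.32 ± 0.38 (log2, SE) passed limma's test with an adjusted p of 0.0048. The gene was higher in 6 of 6 runs. Single libraries elsewhere reached similar levels, such as 47.19 in chlorpyrifos IC20/100, and at levels of about 10 reads the counting error is large. No other exposure passed the test, and in the differentiation comparison the gene was below the low-value filter, at 8.623 ± 3.685 in controls against 7.936 ± 3.94 in NPC.

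DHRS3 (ENSG00000162496.9, chr1:12567910-12617731, minus strand) was the member with the largest rise during differentiation. Controls held 152.4 to 225.0 with a median of 175.8, and NPC held 10.73 to 39.27 with a median of 14.09. The groups did not overlap, and the rise was 3.36 ± 0.18 on the log2 scale (limma adjusted p = 6.74e-09). Fluoxetine IC5 gave the lowest day 10 level, 63.26 to 101.9 with a median of 75.77, below every control and differing by -1.23 ± 0.13, which is described without a test. Set against fluoxetine IC20/100, at 105.9 to 162.4, fluoxetine IC5 was lower without overlap (-0.76 ± 0.13, limma adjusted p = 1.94e-05, 6 of 6 runs). That test reuses the fluoxetine IC5 libraries that drew attention to the set, so it is no separate support.

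DHRS3 also fell, with overlapping ranges, in methyl mercury IC5 (129.2 ± 44.7 against 186.2 ± 29.48 in controls, limma adjusted p = 0.00204) and in fluoxetine IC20/100 (134.9 ± 22.99, adjusted p = 0.00812). In methyl mercury IC20/100 it averaged 141.0 ± 38.51 (adjusted p = 0.0223), and 128.4 ± 15.7 without replicate 8 (adjusted p = 0.00399). That call was lost without control replicate 6 (adjusted p = 0.0527) and without replicate 1 of the exposed group (adjusted p = 0.0519). It rose in valproic acid IC5 to 250.7 ± 44.63 (0.42 ± 0.13 log2, adjusted p = 0.00907). In acrylamide IC5 it averaged 230.5 ± 39.05 (0.33 ± 0.13, adjusted p = 0.0374), a call that was lost without the run term, without the low-value filter and when any 1 of 6 single libraries was left out. Chlorpyrifos held 159.5 ± 20.47 at IC5 and 147.2 ± 23.83 at IC20/100, and neither passed.

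CRABP2 (ENSG00000143320.9, chr1:156699606-156705816, minus strand), which passes retinoic acid to the receptors in the nucleus, separated the DMSO compounds from the controls in every library. Their 48 libraries held 204.9 to 490.7 with a median of 287.0, against 500.9 to 690.6 in the 8 controls. The share of all genes that separate this way was not computed, so how unusual it is cannot be said. These libraries are technical replicates and include those of fluoxetine IC5, through which the set was chosen. The 8 controls were the other side of that comparison, so the tests below reuse them and are no separate support. The 5 tested groups all fell below the controls, by -1.11 ± 0.09 in chlorpyrifos IC20/100 (limma adjusted p = 5.44e-17), -1.09 ± 0.09 in chlorpyrifos IC5, -1.02 ± 0.09 in methyl mercury IC20/100, -0.96 ± 0.09 in fluoxetine IC20/100 and -0.85 ± 0.09 in methyl mercury IC5 (adjusted p = 1.07e-11). Without replicate 8, which alone held 490.7, methyl mercury IC20/100 fell by 1.14. Fluoxetine IC5, not tested, held 292.7 to 335.4, a difference of -0.83 ± 0.09. No group of these compounds differed between its concentrations by limma's test with all libraries. Without replicate 8 of methyl mercury IC20/100, methyl mercury IC5 was higher in CRABP2 by 0.29 ± 0.08 (adjusted p = 0.0129).

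With the medium compounds CRABP2 changed in both directions. Valproic acid IC5 libraries held 785.1 to 1003 with a median of 937.8, above every control (0.65 ± 0.09, limma adjusted p = 1.26e-08). In acrylamide IC5 it fell to 411.7 to 521.4 with a median of 460.9, overlapping the controls (-0.34 ± 0.09, adjusted p = 0.00137). At IC20/100 valproic acid averaged 530.5 ± 47.05 and acrylamide 645.7 ± 60.87, against 583.3 ± 62.34 in controls, and neither passed. Controls had themselves risen far above NPC, which held 62.96 to 141.2 (2.53 ± 0.13, adjusted p = 5.04e-09).

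CRABP1 (ENSG00000166426.8, chr15:78340324-78348230, plus strand), the other binding protein, was the most abundant member per kilobase of exon, at 3399 in controls against 530.2 for CRABP2. Valproic acid IC5 libraries held 5612 to 6605 with a median of 6147, above every control (2954 to 4082, median 3333), a rise of 0.88 ± 0.07 (limma adjusted p = 1.26e-17). Acrylamide IC5 also rose above every control, at 4296 to 4600 with a median of 4461 (0.42 ± 0.07, adjusted p = 8.76e-07). It fell in fluoxetine IC20/100 (2635 ± 275.6, -0.36 ± 0.07), chlorpyrifos IC20/100 (2630 ± 173.2, -0.34 ± 0.07) and chlorpyrifos IC5 (2864 ± 167.2, -0.23 ± 0.07, adjusted p = 0.0105), against 3375 ± 319.9 in controls.

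Methyl mercury IC20/100 averaged 3023 ± 940 for CRABP1 and did not pass with all libraries. Without replicate 8 it averaged 2694 ± 150.7 and fell by 0.31 on the log2 scale (SE 0.05, limma adjusted p = 1.79e-06). Fluoxetine IC5 held 3338 to 3809 and overlapped the controls. It exceeded fluoxetine IC20/100 by 0.42 ± 0.07 (limma adjusted p = 1.25e-05) in 6 of 6 runs, in a test that reuses the libraries that drew attention to the set. Controls had fallen below NPC, whose libraries held 4641 to 5602 (-0.58 ± 0.05, adjusted p = 4.64e-07), while CRABP2 rose in the same comparison.

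STRA6 (ENSG00000137868.19, chr15:74179466-74212267, minus strand), the retinol transporter, fell during differentiation to 28.48 to 89.57 in controls, against 163.5 to 299.0 in NPC (-1.97 ± 0.21, limma adjusted p = 3.81e-06). Acrylamide IC5 had 99.23 to 163.0 with a median of 114.2, above every control (1.16 ± 0.25, adjusted p = 7.51e-05), in 6 of 6 runs. Methyl mercury IC20/100 held 14.13 to 46.17 with a median of 29.21 and fell by 0.81 (SE 0.25, adjusted p = 0.0158), and by 0.85 without replicate 8 (adjusted p = 0.0168). The call was lost when only the 16 libraries compared were fitted and without replicate 5 of that group (adjusted p = 0.055). Methyl mercury IC5 (35.22 ± 12.36), fluoxetine IC5 (34.68 ± 10.06, not tested) and chlorpyrifos IC20/100 (37.63 ± 22.6) also averaged less than the 58.72 ± 18.6 of the controls, and those tested did not pass in the main fit. Methyl mercury IC5 passed when only the 16 libraries compared were fitted (limma adjusted p = 0.0175). Without its replicate 7, chlorpyrifos IC20/100 passed for STRA6 (adjusted p = 0.0139), as it did without control replicate 5 (adjusted p = 0.0485).

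RARA (ENSG00000131759.18, chr17:40309192-40357643, plus strand) was the main retinoic acid receptor in these cells, with 149.8 per kilobase of exon in controls against 5.017 for RARB and 1.656 for RARG. It rose during differentiation, with 622.4 to 789.4 in controls against 417.7 to 547.0 in NPC (0.51 ± 0.05, limma adjusted p = 2.26e-06). In the groups of DMSO compounds its means were 479.2 to 550.6, and 47 of 48 libraries lay below the lowest control. As for CRABP2, the share of all genes that separate so from the controls was not computed, and the tests reuse those controls. All 5 tested groups of these compounds fell, by -0.57 ± 0.08 in chlorpyrifos IC5 (adjusted p = 2.06e-08), -0.49 ± 0.08 in methyl mercury IC5, -0.40 ± 0.08 in fluoxetine IC20/100, -0.40 ± 0.08 in methyl mercury IC20/100 and -0.36 ± 0.08 in chlorpyrifos IC20/100 (adjusted p = 0.000497). Without replicate 8, methyl mercury IC20/100 fell in RARA by 0.42 (adjusted p = 7.79e-05). Fluoxetine IC5, not tested, held 414.9 to 567.0.

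Unlike CRABP2, RARA was also lower with both medium compounds at IC5. Acrylamide IC5 gave the lowest day 10 mean, with 383.6 to 514.9 and a median of 458.4 (-0.64 ± 0.08, limma adjusted p = 1.24e-10), and valproic acid IC5 held 429.5 to 545.5 with a median of 522.1 (-0.46 ± 0.08, adjusted p = 2.05e-06). Both lay below every control. At IC20/100 acrylamide averaged 734.1 ± 60.53 and valproic acid 613.2 ± 111.5, against 708.9 ± 63.17 in controls, and neither passed.

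RARB (ENSG00000077092.19, chr3:25174332-25597932, plus strand) stayed low in all groups, between a mean of 13.88 ± 3.679 in acrylamide IC5 and one of 27.69 ± 5.216 in valproic acid IC5, against 18.55 ± 4.338 in controls and 20.24 ± 5.451 in NPC. No difference passed limma's test in the main fit. Valproic acid IC5 came closest, at 20.38 to 33.68 with a median of 28.14 against 13.15 to 27.23 in controls (0.54 ± 0.22, adjusted p = 0.0649), and DESeq2 on recovered reads called it (adjusted p = 0.0347). Limma called it when only the 16 libraries compared were fitted (adjusted p = 0.0319) and without control replicate 7 (adjusted p = 0.0342). Fitted on the 16 libraries compared, acrylamide IC5 was called lower by limma (-0.449, adjusted p = 0.0426). A processed pseudogene, CFL1P7, lies in the gene on the same strand. RARG (ENSG00000172819.17, chr12:53210567-53232980, minus strand) was lower still, with group means of 2.552 to 13.9. It fell in acrylamide IC5, whose libraries held 0.0 to 5.652 with a median of 1.803 against 4.863 to 25.88 in controls with a median of 6.026 (-1.21 ± 0.36, adjusted p = 0.00483). These values rest on a few reads per library.

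**Figure D3:**
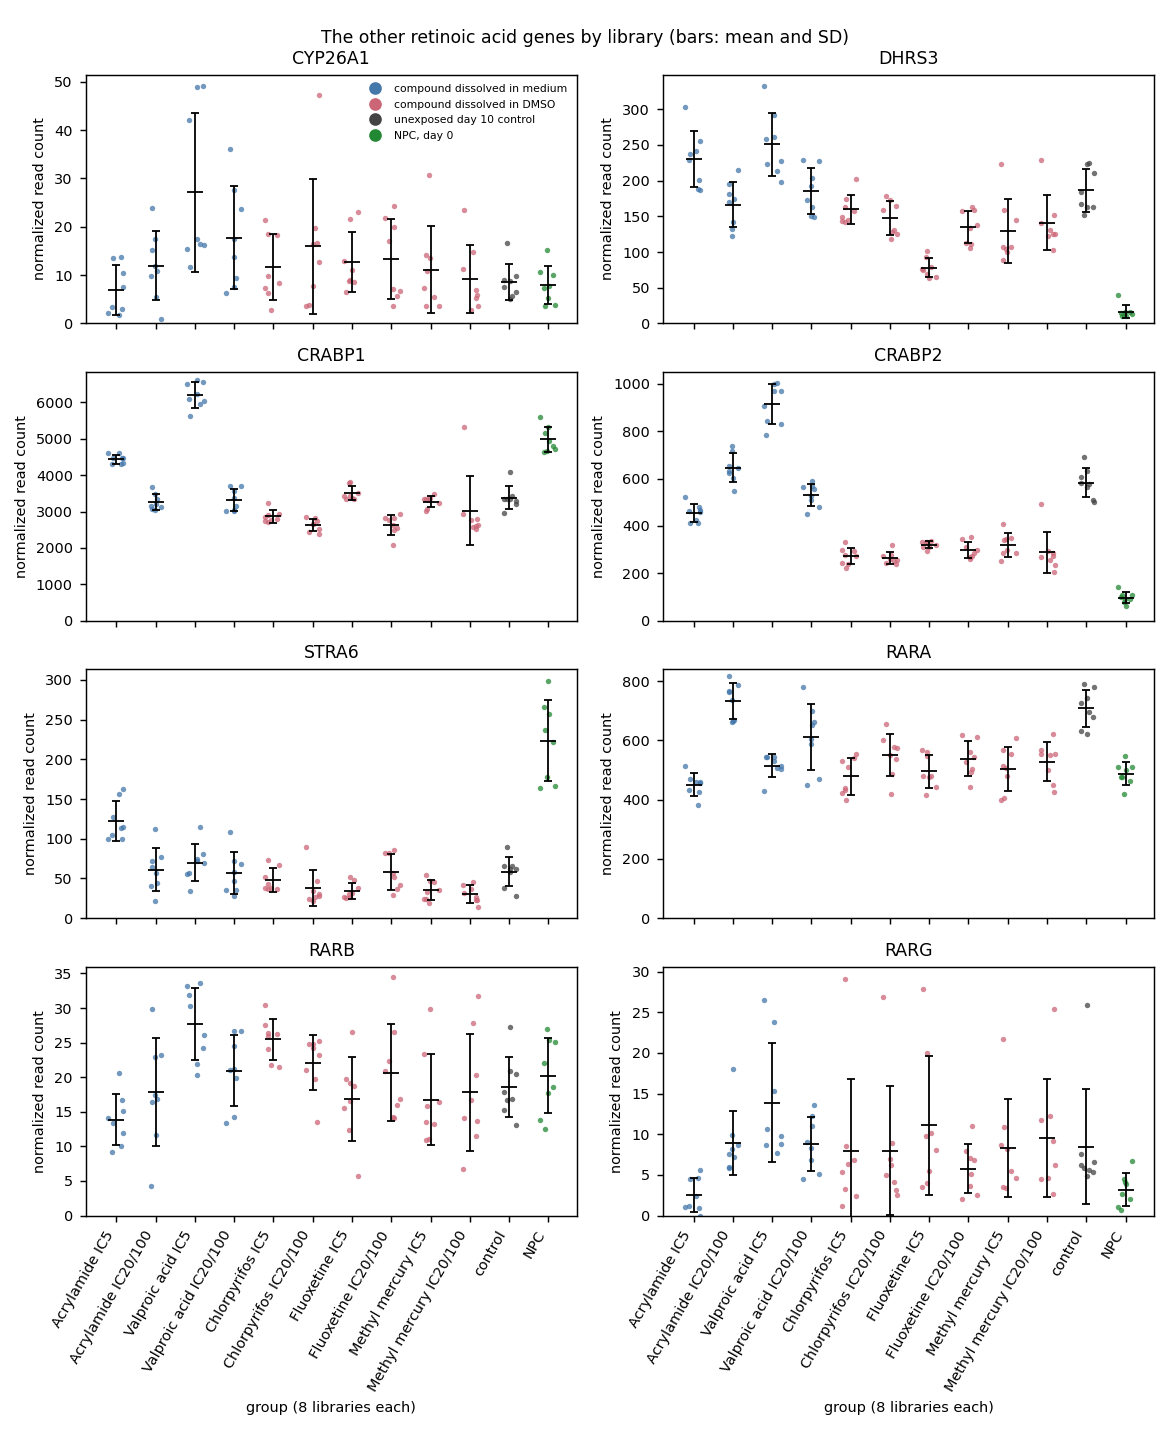
Deposited normalized read counts (y axes, each from 0) of the 8 members other than CYP26B1 by group (x axis), 1 point per library, with bars for the mean and SD of 8 libraries. CRABP2 of the DMSO compounds (red) lies below all controls in 48 of 48 libraries, CRABP1 and CRABP2 are highest at day 10 in valproic acid IC5, and DHRS3 is lowest at day 10 in fluoxetine IC5.

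CYP26A1 and RARB, both known to be induced by retinoic acid, had similar group means over the 11 day 10 groups (r = 0.737, no p). DHRS3, also known to be induced, was less like them (r = 0.142 with CYP26A1 and 0.304 with RARB). Other pairs of members were about as alike, such as CYP26A1 with RARG (0.694) and CRABP1 with CRABP2 (0.762). The reason for any likeness was not tested. The promoter windows of CYP26A1 and RARB are shown because they hold the classical receptor element. RefSeq (GRCh38.p14) gave 21 windows of 300 bases for the 9 members, each with 250 bases before a transcript start and 50 after it. They were searched on both strands for the consensus half-site AGGTCA, the first variant AGTTCA, the second variant GGGTCA and the third variant GGTTCA, as direct repeats with 5 bases (DR5) or 2 bases (DR2) between. A DR5 was found in 2 of the 21 windows, against 31 of 35116 windows of all genes (0.0883%), and a DR2 in 0 of 21, against 14 of 35116. At least 1 half-site, those of the repeats included, was in 10 of the 21, against 38.6% of all windows. Some members have several windows (4 for RARB, 5 for STRA6), and the half-sites were chosen as those of the known element. No enrichment is read from these shares. The RARB window chr3:25428013-25428312 (plus strand) has its DR5, in capitals, 53 to 37 bases before the start. The CYP26A1 window chr10:93073643-93073942 (plus strand) has it on the opposite strand, 90 to 74 bases before the start, so that the capitals read as the reverse complement. The window of CYP26B1, chr2:72147813-72148112 (minus strand), is given beside them and held none of the half-sites.
RARB: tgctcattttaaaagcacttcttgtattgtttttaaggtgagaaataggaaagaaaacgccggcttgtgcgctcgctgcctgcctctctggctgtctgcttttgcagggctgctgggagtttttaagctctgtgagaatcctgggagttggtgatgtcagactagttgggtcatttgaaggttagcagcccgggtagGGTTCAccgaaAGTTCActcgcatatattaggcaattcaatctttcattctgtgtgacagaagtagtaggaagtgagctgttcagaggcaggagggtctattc
CYP26A1: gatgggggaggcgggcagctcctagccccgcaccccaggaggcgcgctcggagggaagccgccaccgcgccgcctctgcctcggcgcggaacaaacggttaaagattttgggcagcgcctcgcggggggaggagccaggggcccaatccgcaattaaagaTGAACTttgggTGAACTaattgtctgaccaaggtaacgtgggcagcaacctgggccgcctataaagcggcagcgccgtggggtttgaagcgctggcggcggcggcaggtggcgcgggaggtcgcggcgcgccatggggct
CYP26B1: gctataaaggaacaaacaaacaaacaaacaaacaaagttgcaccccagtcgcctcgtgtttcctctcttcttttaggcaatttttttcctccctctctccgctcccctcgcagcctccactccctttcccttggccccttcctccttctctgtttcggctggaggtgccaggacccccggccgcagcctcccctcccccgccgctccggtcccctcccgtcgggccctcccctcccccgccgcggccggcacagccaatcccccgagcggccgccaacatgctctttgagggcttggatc
A match describes these letters and is no evidence of binding.

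Counted over the members, the exposures are read here against the share of all tested genes that passed the same limma test at an adjusted p under 0.05. The controls in each count were also part of the comparison that drew attention to the set. These counts are therefore no separate support. In acrylamide IC5, 6 of 8 tested members passed, with CRABP1, DHRS3 and STRA6 higher and CRABP2, RARA and RARG lower. Of all genes, 20.5% were higher and 21.5% lower there. In valproic acid IC5, 5 of 8 passed, with CRABP1, CRABP2, CYP26A1 and DHRS3 higher and RARA lower, beside 14.5% of all genes higher and 12.4% lower. In chlorpyrifos IC5, 3 of 8 were lower (CRABP1, CRABP2 and RARA) and 0 higher, beside 9.75% of all genes lower and 9.92% higher. Chlorpyrifos IC20/100 had the same 3 genes lower, beside 7.02% of all genes lower and 7.06% higher. Fluoxetine IC20/100 had 4 of 8 lower (CRABP1, CRABP2, DHRS3 and RARA), beside 7.54% of all genes lower and 6.88% higher. Methyl mercury IC5 had 3 of 8 lower (CRABP2, DHRS3 and RARA), beside 6.06% lower and 4.85% higher of all genes. Methyl mercury IC20/100 had 4 of 8 lower (CRABP2, DHRS3, RARA and STRA6), beside 7.6% lower and 8.21% higher of all genes. Without its replicate 8, CRABP1 joined them as the fifth.

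Fluoxetine IC5 was not tested for the members. CYP26B1, CRABP2, DHRS3 and RARA lay below the controls there without overlap, as did 1.77% of all genes, with 1.12% above the controls without overlap, and nothing is read from this since that comparison drew the attention to the set. The median log2 fold change over the 9 members was -0.34 in acrylamide IC5, -0.26 in chlorpyrifos IC5, -0.34 in chlorpyrifos IC20/100, -0.36 in fluoxetine IC20/100, -0.49 in methyl mercury IC5 and -0.40 in methyl mercury IC20/100. It was 0.54 in valproic acid IC5, 0.08 in acrylamide IC20/100 and -0.01 in valproic acid IC20/100. Over all genes the median lay between -0.008 and 0.006 in these comparisons, which share their controls. The members' medians count CYP26B1, which was singled out for low values, so no shift of the set is read from them.

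At the IC20/100 of the medium compounds no member passed. Acrylamide IC20/100 had 0 of 8 called by limma, edgeR or DESeq2, and 0 at an unadjusted p under 0.05, beside 0.0596% of all genes called. Valproic acid IC20/100 had 0 of 8 by the same tools and 2 at an unadjusted p under 0.05 (CYP26A1 and RARA), beside 2.54% of all genes.

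Set directly against each other, the concentrations of acrylamide differed in 6 of 8 members, with CRABP1, DHRS3 and STRA6 higher at IC5 and CRABP2, RARA and RARG lower, beside 20% of all genes higher and 21.1% lower. Valproic acid IC5 had CRABP1, CRABP2 and DHRS3 higher than IC20/100 and RARA lower, beside 9.73% of all genes higher and 7.27% lower. The RARA difference of -0.24 ± 0.08 (adjusted p = 0.0197) was lost without the run term and in several fits that left out 1 library. The DHRS3 difference was lost without replicate 5 of IC20/100 (adjusted p = 0.0618) and without replicate 8 of IC5 (adjusted p = 0.0658). Fluoxetine IC5 had CRABP1 higher and DHRS3 lower than IC20/100, beside 2.3% of all genes higher and 1.46% lower. Nothing is read from this count, since the fluoxetine IC5 libraries drew the attention to the set. Chlorpyrifos had 0 of 8 called between its concentrations by limma, edgeR or DESeq2 and 1 at an unadjusted p under 0.05, beside 0.0497% of all genes. Methyl mercury also had 0 of 8 by the same tools and 1 at an unadjusted p under 0.05, beside 5.17% of all genes, but 2 (CRABP1 and CRABP2, both higher at IC5) without replicate 8 of IC20/100.

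In the differentiation comparison most genes were called, with 33.9% of all genes higher and 36.8% lower in controls than in NPC. Of the 9 members, 7 passed the low-value filter there and 6 were tested. CRABP2, DHRS3 and RARA rose, CRABP1 and STRA6 fell, and RARB did not pass (-0.09 ± 0.21).

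**Figure D4:**
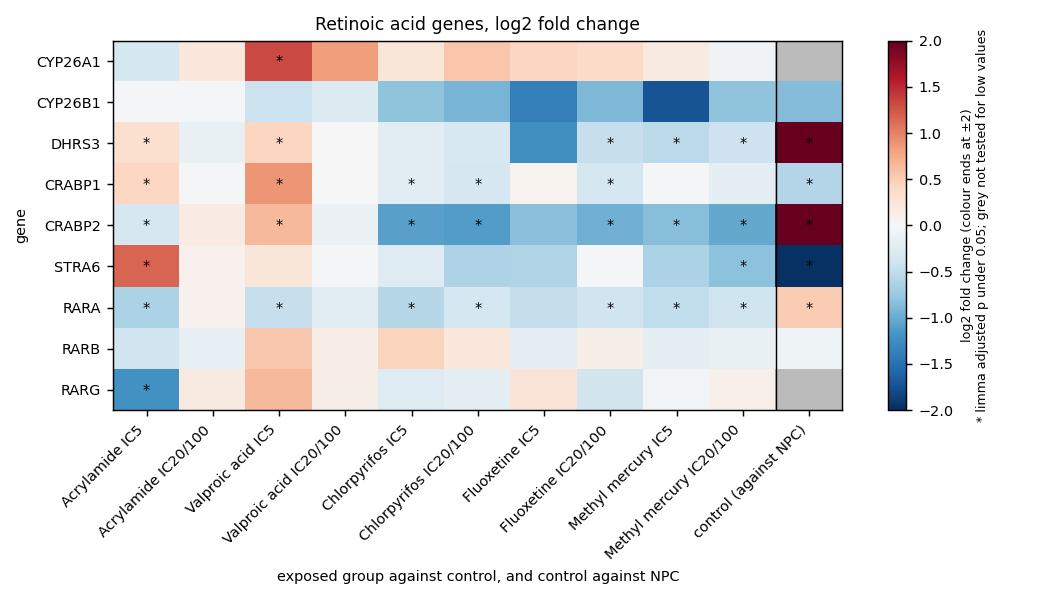
Log2 fold changes (colour) of the 9 members (rows) in each exposed group against control and, right of the line, in control against NPC (columns). Stars mark limma adjusted p-values under 0.05, the CYP26B1 row and the fluoxetine IC5 column were not tested, and grey cells were below the low-value filter. CRABP2 and RARA are lower in all DMSO compound groups, and CRABP1, CRABP2 and DHRS3 are higher in valproic acid IC5.

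The other genes of the pathway, 43 listed by their role, gave the members' setting. Of these, 29 passed the filter at day 10. The enzymes that make retinoic acid were scarce, with ALDH1A1 at group means of 0.1046 to 1.797, ALDH1A3 at 0.4628 to 5.795 and ALDH1A2 at 8.006 to 63.18, while the retinol dehydrogenase RDH10 ran at 158.2 to 271.3. The ALDH1A2 mean in NPC rested on replicate 2 (393.1) and was 16.05 without it, and that in chlorpyrifos IC20/100 (41.29) also rested on replicate 2 (284.8) and was 6.503 without it. CYP26C1, the remaining CYP26 enzyme, had group means of 0.6978 to 2.978. HOXB1, a hindbrain gene induced early by retinoic acid, was at most 1.084 in any library.

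Of the 29 other pathway genes, valproic acid IC5 had 7 higher and 2 lower, and acrylamide IC5 had 10 higher and 0 lower, beside the shares of all genes given above. In valproic acid IC5 the retinol esterifying enzyme LRAT averaged 71.71 ± 32.39 against 27.12 ± 9.188 in controls (1.301 ± 0.315, limma adjusted p = 0.00082). The homeobox gene MEIS2, a known retinoic acid target, averaged 315.6 ± 75.39 against 162.5 ± 43.52 (0.95 ± 0.16, adjusted p = 2.19e-06), and the heterodimer partner RXRG 153.7 ± 21.44 against 85.33 ± 27.16 (0.88 ± 0.15, adjusted p = 3.34e-06). MEIS2 was the 1 gene called among the 8 tested known retinoic acid targets, beside 14.5% of all genes higher. The median log2 fold change of those targets was -0.03. RDH10, outside the naming rule for its size of change, averaged 271.3 ± 46.07 against 187.2 ± 58.64 (0.58 ± 0.21, adjusted p = 0.0288) and was chosen after its values were seen. LRAT, MEIS2 and RXRG were also higher in valproic acid IC5 than in IC20/100, RXRG without overlap (0.90 ± 0.15, adjusted p = 4.18e-06). The MEIS2 call was lost when only the 16 libraries compared were fitted (adjusted p = 0.0768).

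In acrylamide IC5, MEIS2 averaged 264.7 ± 70.37 (0.67 ± 0.16, limma adjusted p = 0.000488) and BCO2, a carotenoid cleaving enzyme, 51.05 ± 22.33 against 28.08 ± 9.994 in controls (0.82 ± 0.29, adjusted p = 0.015). Of the 8 known targets tested there, MEIS2 included, 2 were higher and 0 lower, beside 20.5% of all genes higher and 21.5% lower. RARRES1 differed between the acrylamide concentrations, at 26.42 ± 47.83 in IC5 against 206.0 ± 180.4 in IC20/100 (adjusted p = 0.029), with SDs near or above the means, and the call was lost in 8 alternative fits. With the DMSO compounds 4 to 6 of these genes passed. Chlorpyrifos IC5 had 4 higher and 1 lower, beside 9.92% of all genes higher and 9.75% lower. Chlorpyrifos IC20/100 had 4 and 0, beside 7.06% and 7.02%. Fluoxetine IC5 had 3 and 2, beside 5.47% and 5.94%, and fluoxetine IC20/100 had 2 and 2, beside 6.88% and 7.54%. Methyl mercury IC5 had 2 and 2, beside 4.85% and 6.06%, and methyl mercury IC20/100 had 4 and 2, beside 8.21% and 7.6%. Acrylamide IC20/100 and valproic acid IC20/100 each had 0 called by limma, beside 0.0596% and 2.54% of all genes. At an unadjusted p under 0.05 they had 0 and 4, by edgeR 0 and 0 and by DESeq2 0 and 1.

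Of the 26 other pathway genes tested in controls against NPC, 14 fell and 4 rose, beside 36.8% of all genes lower and 33.9% higher. The corepressor NCOR1 fell to 3479 ± 692.5 in controls against 7738 ± 1578 in NPC (-1.20 ± 0.16, limma adjusted p = 2.88e-05), and RXRG rose to 85.33 ± 27.16 in controls against 11.39 ± 3.347 in NPC (2.69 ± 0.22, adjusted p = 3.44e-07).

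**Figure D5:**
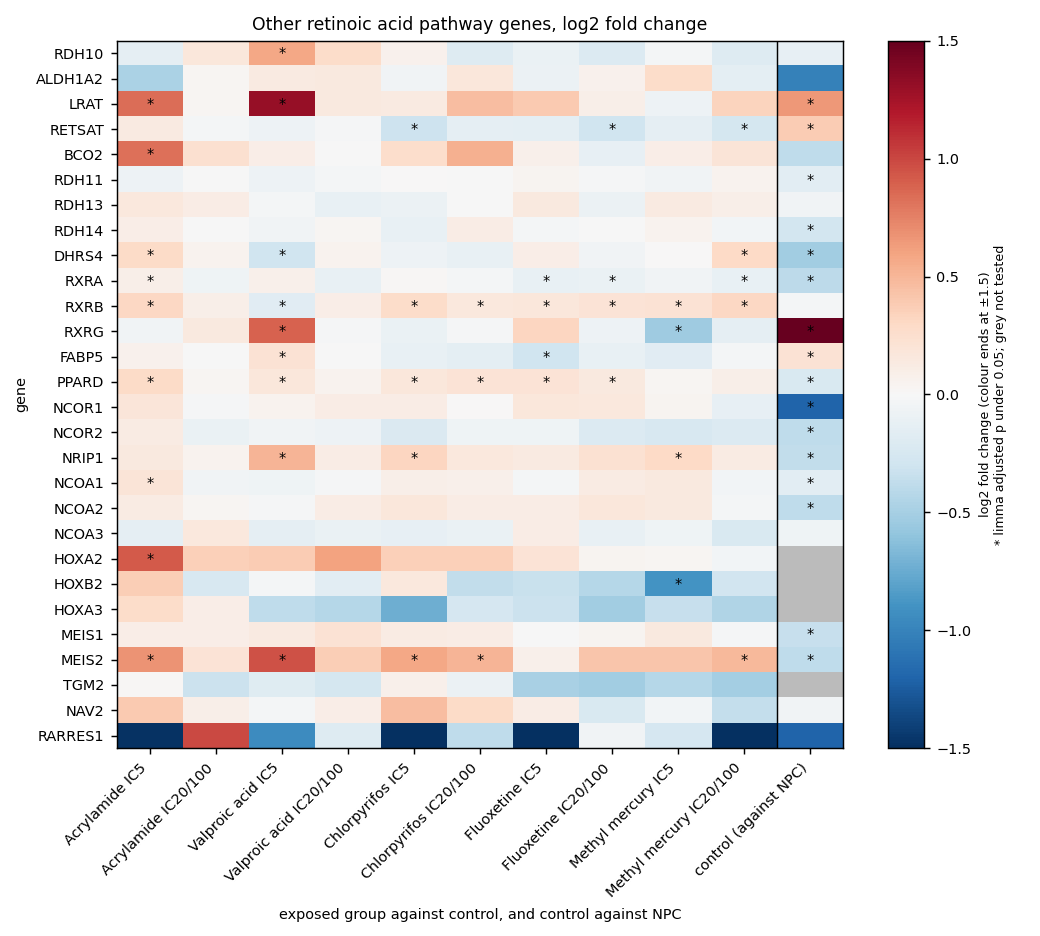
Log2 fold changes (colour) of 28 of the 29 other retinoic acid pathway genes that passed the day 10 filter (rows) in each exposed group against control and, right of the line, in control against NPC (columns). Stars mark limma adjusted p-values under 0.05 and grey cells were not tested. The starred cells of valproic acid IC5 and acrylamide IC5 are mostly red, with LRAT and MEIS2 red in both.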

How the data were processed

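Polyadenylated RNA libraries (TruSeq stranded kit, per the labels) came from 12 groups of 8, spread over 6 sequencing runs. Per the submitters' processing notes, the authors used bcl2fastq, FastQC 0.11.8, MultiQC 1.0, Salmon 1.3.0 and DESeq2 1.30.0, with GRCh38. No source used here gives the annotation release or whether counting used strand, so reads shared with overlapping genes (RARA-AS1, TOP2B beside RARB, CCDC33 beside STRA6) are uncertain. The deposited signal is a count per gene divided by 1 size factor per library by the authors. Whole reads were recovered from it (100% of positive values whole within 0.001 read) and used only for edgeR 4.0.16 and DESeq2 1.42.0 as alternatives. To look for duplicates, the recovered reads of each of 336 pairs of same-group libraries went through a chi-square test, and the lowest value per degree of freedom was 16.6, so none was counted as 1 library.

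The test was limma 3.58.1 (R 4.3.3, trended prior) on log2 of the deposited value plus 2, with group and run as terms, for genes that reached a value of 10 in 8 or more libraries of the fit, and Benjamini-Hochberg adjustment over all genes tested. Controls and NPC were fitted apart (16 libraries, 18063 genes, 9 residual degrees of freedom), and the day 10 groups in 1 fit (88 libraries, 20136 genes, 72 residual degrees of freedom). Levels per kilobase divide the value by the length of the union of exons in GENCODE 29. The procedure was tested on simulated data.

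Members, lists and tests were chosen with earlier results of these data known. All 9 members are named. Other pathway genes were named where called with at least a 1.5-fold change and a mean of at least 50 in the higher group, at most 4 per comparison. Some of the genes this rule or the lists hold are not reported here. Genes like CYP26B1 were the 5 protein-coding genes with the highest Pearson correlation of run-adjusted group means among those with a mean of at least 50.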

Additional observations from a re-analysis of the deposited data

Results flagged for a closer look

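In 20 of the 108 sets of 8 values (9 genes in 12 groups), the highest or lowest library lay apart from the nearest other by more than Dixon's 95% critical share of the range. Chance alone flags about 1 set in 20.

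Methyl mercury IC20/100 replicate 8 was the highest of its group for CRABP1 (5323), CRABP2 (490.7) and DHRS3 (229.3), and the results above are given without it. For CYP26B1, acrylamide IC20/100 replicate 4 held 1301, against 630.9 to 858.5 in the other libraries of its group.

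Further high libraries of the more abundant members were CRABP1 in control replicate 7 (4082) and in chlorpyrifos IC5 replicate 8 (3225), CRABP2 in chlorpyrifos IC20/100 replicate 5 (321.5), STRA6 in chlorpyrifos IC20/100 replicate 7 (90.12) and DHRS3 in NPC replicate 3 (39.27). RARA was low in valproic acid IC5 replicate 8 (429.5).

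Among the members with few reads, CYP26A1 was high in chlorpyrifos IC20/100 replicate 4 (47.19), methyl mercury IC5 replicate 3 (30.63) and control replicate 8 (16.74), and RARB was low in chlorpyrifos IC20/100 replicate 6 (13.57). RARG had a single high library in chlorpyrifos IC5 replicate 2 (29.1), chlorpyrifos IC20/100 replicate 7 (26.92), control replicate 3 (25.88), methyl mercury IC20/100 replicate 6 (25.37), methyl mercury IC5 replicate 6 (21.74) and acrylamide IC20/100 replicate 7 (18.0). At such levels a few reads move a value.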

How the results depend on the processing

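No result reversed under any alternative run. The number of members called stayed within 1.5 times its main value in all 15 tested comparisons with a pseudocount of 0.5, without the low-value filter, without the run term, with edgeR and with DESeq2. The replicate numbers did not pair the libraries: in 0 of 16 comparisons did every same-numbered pair correlate above 0.1 with run removed. With replicate number as a block, the count in methyl mercury IC20/100 against control was 5 (CRABP1 added) in place of 4, and the other 14 counts were the same. Fitted on the 16 libraries compared alone, methyl mercury IC20/100 against control gave 2 members (STRA6 and DHRS3 lost), and without replicate 8 of that group methyl mercury IC5 against IC20/100 gave 2 in place of 0. The cause of the first was not tested.

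Leaving out 1 library at a time gave 0 to 2 members in methyl mercury IC5 against IC20/100, 2 to 4 in valproic acid IC5 against IC20/100, 3 to 5 in methyl mercury IC20/100 against control, 5 to 6 in acrylamide IC5 and in valproic acid IC5 against control, and 3 to 4 in chlorpyrifos IC20/100 against control. In the other comparisons the count did not move. Group levels scaled to a common total of reads moved by less than 1 SD in all 108 cases. A median always lies within 1 SD of its mean, so the same rule could not show a move for medians. CYP26A1 in valproic acid IC5, for example, had a mean of 27.13 and a median of 16.88. CYP26A1, RARB and RARG rest on few reads, and their differences are the least precise.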
